A study of Mus musculus with 24 samples.

Results

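Chemokines and the receptors that bind them were taken as every row of the deposited gene table whose symbol starts with Ccl, Cxcl, Cx3cl, Xcl, Ccr, Cxcr, Cx3cr or Xcr followed by a digit and whose transcript types include protein_coding. This gave 54 of 33272 rows, of which 37 are ligands and 17 are receptors or receptor-like. The symbols alone matched 56 rows, and the other 2 were pseudogenes of Ccl19. For 32 of the 54, protein_coding was the single type listed. They lie in clusters, with 14 on chromosome 11, 11 on chromosome 9 and 9 on chromosome 5.

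Chemokines are small secreted proteins, a few of them anchored in the membrane, that guide leukocytes by binding receptors coupled to G proteins on those cells. Inflammatory chemokines are induced in injured tissue by cytokines and by toll-like receptors, while homeostatic ones place lymphocytes and progenitors in resting tissue. In liver and kidney, the neutrophil-attracting CXC ligands and the monocyte-attracting CC ligands are known as early signals of toxic injury.

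RNA of liver and kidney of C57BL/6 mice was sequenced in 4 arms, the 3 treated ones at 72 h. The combination arm received CBLB502, an agonist of the receptor TLR5 derived from bacterial flagellin, at 0.2 mg/kg and, 30 min later, the platinum drug cisplatin at 20 mg/kg into the peritoneum. The cisplatin arm received that dose of cisplatin, the CBLB502 arm received CBLB502, and the control arm was labelled as untreated, with no time given. The labels name no allele or transgene, and age and sex are not stated in them. Each arm of each organ had 3 libraries, which makes 8 groups and 24 libraries. Nothing in the labels says that the libraries of a group came from separate mice, so p-values rest on the spread among libraries, part or all of which may be technical.

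Depth ran from 40.58 to 77.54 M counts per library (M, mega), but the control libraries differed in kind from the treated ones. Mitochondrial transcripts took 2.57% to 14.22% of counts in treated libraries, against 60.69% to 72.24% in control libraries, and 7 rows of nuclear copies of mitochondrial sequence took a further 19.79% to 21.89% in controls. All other genes held 44 to 74.5 M counts in treated libraries, against 2.82 to 10.14 M in controls. In every comparison with control, the treatment and this difference in kind cannot be told apart. Comparisons between treated arms set treated libraries side by side, although the controls entered their filter and their estimate of the spread. In each organ, 1 cisplatin library stood apart by its leading log2 fold changes over 500 genes. Liver cisplatin library 3 was 5.26 to 5.74 from its own group and 4.13 from the nearest combination library, while libraries 1 and 2 were 3.58 apart. Kidney cisplatin library 6 was 4.91 to 5.03 from its own group and 3.61 from the nearest combination library, while libraries 4 and 5 were 3.66 apart. Results of the cisplatin arm are therefore given with and without these libraries. Hepatocyte markers (Alb, Apoa1, Ttr, Cps1) summed to 58800 to 106000 counts per M (CPM) in treated and 15400 to 34900 CPM in control liver libraries, and to 81.4 to 166 CPM in treated and 17.5 to 46.7 CPM in control kidney libraries. In liver 4 of 4 were called higher than control with cisplatin and with the combination, and 3 with CBLB502, and in kidney 3 in each treated arm, so these markers moved with every comparison with control and their part in the results was not tested. Proximal tubule markers (Slc34a1, Lrp2, Slc5a2, Aqp1) summed to 795 to 4050 CPM in kidney and 5.26 to 57.5 CPM in liver. Each set was far higher in the organ it is named for, as the labels say.

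Levels are CPM on scaled library sizes and are listed in the order of the libraries, which are numbered 1 to 3 in liver and in control kidney and 4 to 6 in treated kidney. Each adjusted p is from the quasi-likelihood test of edgeR, adjusted after Benjamini and Hochberg over all tested genes, and a member under 0.05 is called. A fold divides the mean CPM of one group by that of the other. Whether groups overlap is given as a description of the libraries. The share of all tested genes without overlap was not counted. Log2 fold changes have their standard error after the ± sign and rest on 3 libraries a group. A filter on low counts left 43 members to test in kidney, 36 in liver and 49 in the fit of both organs. A count of 3 corresponded to 0.0191 to 0.0481 CPM in treated libraries, against 0.0842 to 0.435 CPM in controls, so a member at 0 in a control may have been missed. In whole-organ RNA, fewer cells of a type and less RNA per cell cannot be told apart.

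Per kb of transcript, the leading members differed between arms. In cisplatin kidney Cxcl1 led with 76.5 CPM per kb, ahead of Cxcl16 with 14.5 and Cx3cl1 with 8.49. In control kidney Cxcl12 had 9.06, Cx3cl1 8.83, Cxcl14 7.21 and Cxcl16 7.12 CPM per kb, neighbours that differed by less than the spread between libraries. Liver had the same leading gene with cisplatin, Cxcl1 at 92.7 CPM per kb, followed by Ccl9 at 16.9 and Cxcl12 at 16, whereas control liver had Ccl6 at 14.2, Cxcl12 at 12.4 and Ccl5 at 8.76. The 17 receptors were scarce: their summed level was at most 16.1 CPM in any kidney library and 39.6 CPM in any liver library, both of them controls.

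In kidney, cisplatin changed 21 of the 43 tested members relative to control, 9 higher and 12 lower, where 39.3% of all tested genes were called, 24.1% higher and 15.2% lower. The median log2 fold change was -1.18 over tested members and 0.06 over all tested genes. The 9 higher members were 8 ligands and the receptor Cxcr4, and the 12 lower ones were 7 ligands and 5 receptors. The combination changed 16 members against control, 3 higher and 13 lower (36.5% of all genes, 21.5% higher and 15% lower), and CBLB502 alone changed 3, all lower (19.2% of all genes, 11.4% higher and 7.77% lower).

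In liver, cisplatin changed 23 of the 36 tested members relative to control, 2 higher and 21 lower, where 43.1% of all tested genes were called, 25.6% higher and 17.5% lower. The median log2 fold change was -1.86 over tested members and 0.09 over all genes. Both higher members were ligands, and 12 ligands and 9 of 12 tested receptors were lower. The combination changed 22 against control, 1 higher and 21 lower (40.2% of all genes, 23.8% higher and 16.4% lower), and CBLB502 changed 6, 1 higher and 5 lower (27.8% of all genes, 18.3% higher and 9.48% lower). Without the library that stood apart, cisplatin against control gave 28 called members in kidney, 11 higher and 17 lower, and 24 in liver, 2 higher and 22 lower. Of the calls made with all libraries, Ccl6 and Xcr1 in kidney and Ccl6 in liver were then lost.

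Single libraries carried part of these calls. Leaving out any 1 of the 6 libraries of cisplatin and control kept 13 of the 21 kidney calls (Cxcl1, Cxcl2, Cxcl9, Cxcl10, Cxcl14, Cxcl16, Cxcl17, Ccl5, Ccl19, Ccl20, Cxcr3, Cxcr6 and Cx3cr1) and 16 of the 23 liver calls (Cxcl1, Cxcl13, Cxcl16, Ccl5, Ccl9, Ccl21b, Ccl21d, Ccl25, Ccr2, Ccr7, Ccr9, Cxcr3, Cxcr4, Cxcr5, Cxcr6 and Cx3cr1). For the combination against control, 11 of 16 were kept in kidney (Cxcl1, Cxcl9, Cxcl14, Cxcl17, Ccl5, Ccl6, Ccl8, Ccl20, Ccr2, Cxcr3 and Cx3cr1) and 14 of 22 in liver (among them Cxcl10, Cxcl13, Cxcl16, Ccl5, Ccl6, Ccl9, Ccl19, Ccl27a, Ccr2, Ccr7, Cxcr3, Cxcr5 and Cx3cr1). Calls beyond these counts were each lost without at least 1 library, that of Cxcl9 in combination liver at an edgeR adjusted p of 0.0512 and 0.0515 without combination library 2 or 3.

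**Figure D1:**
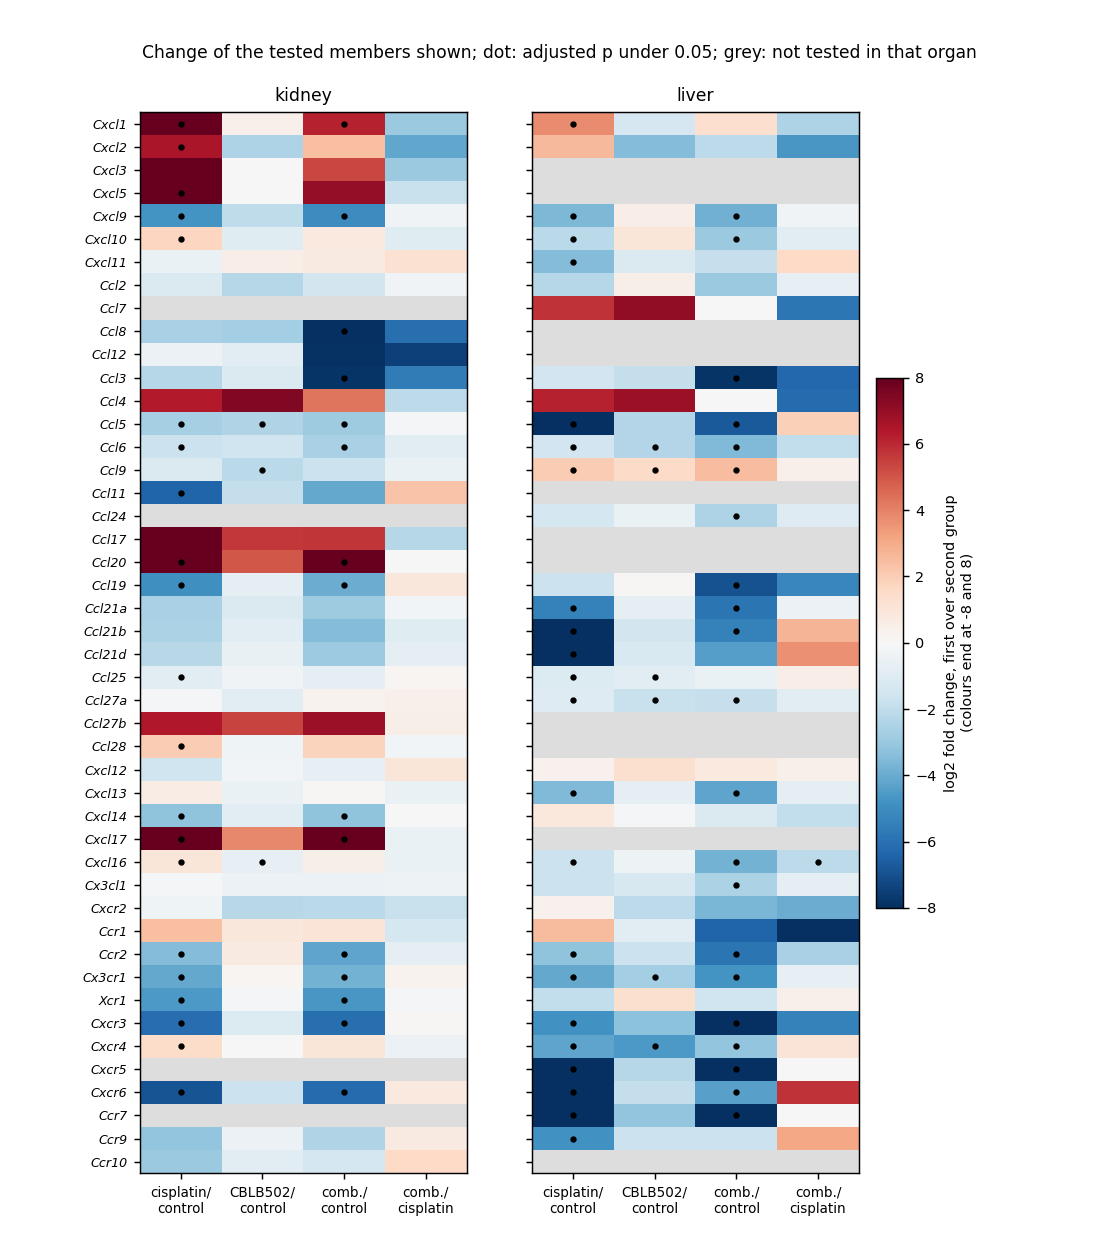
Log2 fold change of the tested members but 1 (rows, grouped by role) in 4 comparisons (columns) in kidney (left) and liver (right), 3 libraries a group. Red is higher and blue lower in the first-named group, a dot marks an adjusted p under 0.05 and grey a member not tested in that organ; cisplatin against control has 9 higher and 12 lower called members in kidney, and 2 higher and 21 lower in liver, of which 1 lower member is not drawn.

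The CXC ligands of Cxcr2, the main chemokine receptor of neutrophils, include the member with the highest level per kb after cisplatin. Cxcl1 (ENSMUSG00000029380, chromosome 5, 90891241 to 90893115, plus strand), a major neutrophil attractant of mice, rose with cisplatin in both organs. In kidney it was at 247, 162 and 4.55 CPM with cisplatin, against 0.336, 0.168 and 0.25 CPM in control. All cisplatin libraries lay above all controls, and library 6 lay far below the other cisplatin libraries. The difference was 548-fold (log2 fold change 9.14 ± 1.39, edgeR adjusted p = 0.000452), and without library 6 the log2 fold change was 9.73 (edgeR adjusted p = 5.6e-07). In liver, Cxcl1 was at 194, 261 and 46.5 CPM with cisplatin, against 1.13, 24.5 and 10.7 CPM in control. The groups did not overlap, the controls spread widely and library 3 was the lowest cisplatin library. The difference was 13.8-fold (log2 fold change 3.80 ± 1.03, edgeR adjusted p = 0.0115), and without library 3 the log2 fold change was 4.26 (edgeR adjusted p = 0.00364).

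The promoters of Cxcl1, Cxcl2 and Cxcl3, neighbours on chromosome 5 that were high in the same cisplatin libraries, and of Cxcl10, which changed in opposite directions in the organs, are printed to set these genes side by side. Each run covers bases 250 to 31 before the RefSeq transcript start, 5′ to 3′ on the gene's own strand, from RefSeq on build GRCm38.p6. Capitals mark matches on either strand to GGG followed by any 3 bases and TTCC, a form of the site of NF-kB (a transcription factor of inflammatory signalling), or to GAAA, any 2 bases and GAAA again, a form of the interferon-stimulated response element.
Cxcl1, chr5:90890995-90891214, + strand: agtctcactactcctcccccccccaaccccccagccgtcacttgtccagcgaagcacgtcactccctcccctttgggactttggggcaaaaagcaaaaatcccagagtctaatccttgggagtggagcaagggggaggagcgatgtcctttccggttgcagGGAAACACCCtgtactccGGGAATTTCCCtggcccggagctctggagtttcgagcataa
Cxcl2, chr5:90903649-90903868, + strand: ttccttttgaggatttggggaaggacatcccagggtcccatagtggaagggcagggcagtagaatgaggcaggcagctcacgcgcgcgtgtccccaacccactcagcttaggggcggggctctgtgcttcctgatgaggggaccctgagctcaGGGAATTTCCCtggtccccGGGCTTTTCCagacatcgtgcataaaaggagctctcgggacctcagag
Cxcl3, chr5:90785851-90786070, + strand: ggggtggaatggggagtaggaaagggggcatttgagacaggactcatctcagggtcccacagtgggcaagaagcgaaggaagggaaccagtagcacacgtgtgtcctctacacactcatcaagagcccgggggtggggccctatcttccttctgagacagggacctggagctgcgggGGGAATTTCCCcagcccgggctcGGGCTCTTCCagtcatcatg
Cxcl10, chr5:92348920-92349139, - strand: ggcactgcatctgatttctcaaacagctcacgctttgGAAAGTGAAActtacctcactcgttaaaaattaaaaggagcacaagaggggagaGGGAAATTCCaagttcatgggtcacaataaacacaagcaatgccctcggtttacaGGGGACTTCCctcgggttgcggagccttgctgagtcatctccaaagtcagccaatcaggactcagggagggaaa
The first form was found in 3.84% of 32851 such windows of mouse transcripts. The 40 members with an entry have 47 windows, and 8 members had the form in any of theirs. These were Ccl1, Ccl20, Ccr3, Ccr6, Cxcl1, Cxcl2, Cxcl3 and Cxcl10. The percentage counts windows and the other figure counts members, so they are not like for like. The run GGGAATTTCC occurs in Cxcl1, Cxcl2 and Cxcl3. The second form was found in 2.63% of windows and, among the members, in Ccl19, Cxcl10 and Cxcl14. A match describes letters and not binding.

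Cxcl2 (ENSMUSG00000058427, chromosome 5, 90903871 to 90905938, plus strand), a second ligand of Cxcr2 made by macrophages and neutrophils, was at 24.7, 11 and 0.185 CPM in cisplatin kidney, against 0.168, 0.112 and 0.107 CPM in control. Its level was high in libraries 4 and 5 and just above the controls in library 6 (log2 fold change 6.54 ± 1.4, edgeR adjusted p = 0.00347). In liver it was at 9.39, 4.25 and 0.0506 CPM with cisplatin, against 1.27, 0 and 1.02 CPM in control, groups that overlapped and did not pass the test (log2 fold change 2.60 ± 1.65, edgeR adjusted p = 0.222).

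Cxcl5, an epithelial ligand of Cxcr2, was at 1.04, 0.364 and 0.0894 CPM in cisplatin kidney and had no count in any control library. This was at least 13.6-fold higher against 3 counts over the control group (edgeR adjusted p = 0.021). Cxcl3, with the same receptor, was at 0.789, 0.293 and 0 CPM in cisplatin kidney, with no count in control, and was called only without library 6 (edgeR adjusted p = 0.103 with it and 0.0252 without it). Neither gene passed the filter in liver, where cisplatin libraries had Cxcl3 at 1.49, 0.778 and 0 CPM, against 0.423, 0 and 0 CPM in control, and Cxcl5 at 0.289, 0.125 and 0 CPM, against no count in control. Within the cisplatin arm each of the 4 ligands was lowest in library 6 of kidney and in library 3 of liver. The call of Cxcl5 was lost without kidney cisplatin library 4 or control library 2 (edgeR adjusted p = 0.0586 and 0.0518).

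**Figure D2:**
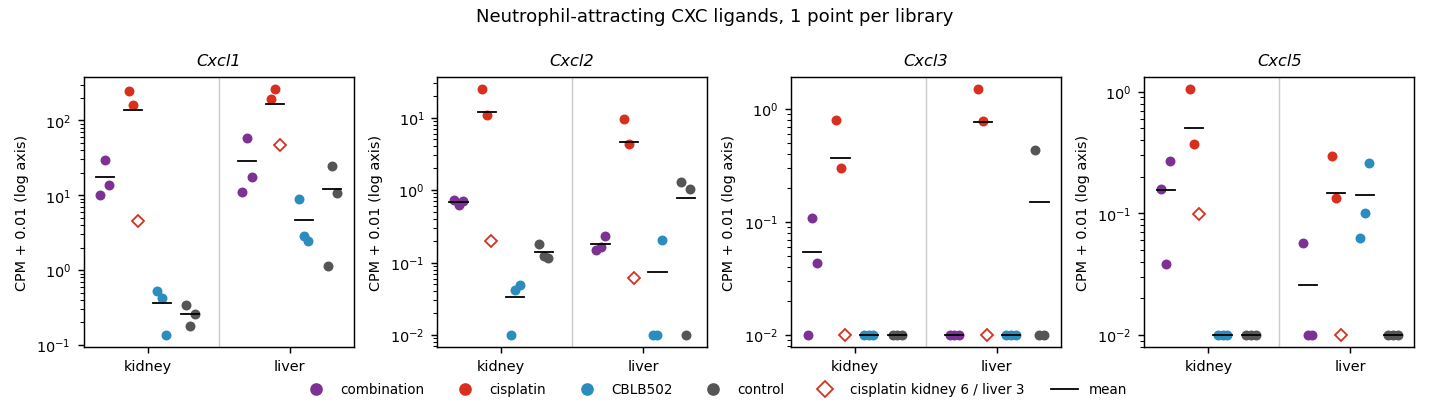
Levels of Cxcl1, Cxcl2, Cxcl3 and Cxcl5 in each library (CPM plus 0.01, log axis), kidney left and liver right in each panel, with the combination, cisplatin, CBLB502 and control arms from left to right and black bars at the mean. The open diamond is the cisplatin library that stood apart, for which Cxcl1 was lower than in the other cisplatin libraries in both organs.

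The receptor Cxcr2 itself was low. It was at 0.0601, 0.317 and 0 CPM in cisplatin kidney, against 0.504, 0 and 0 CPM in control, and at 0.562, 1.87 and 0.126 CPM in cisplatin liver, against 1.97, 0 and 0 CPM in control. The groups overlapped in both organs and neither was called (edgeR adjusted p = 0.912 in kidney and 0.871 in liver). Neutrophil markers (S100a8, S100a9, Csf3r, Mmp9, Ly6g, Retnlg, Mpo and Elane, of which 5 of 8 were tested) summed to 4.56, 19.3 and 0.945 CPM in cisplatin kidney, against 1.96 to 3.47 CPM in control, and to 39.1, 53.2 and 3.45 CPM in cisplatin liver, against 14 to 20.2 CPM in control. In the combination the sums were 0.295 to 1.53 CPM in kidney and 0.341 to 1.02 CPM in liver. Of the tested ones, 1 was higher in cisplatin kidney, and 1 was higher and 1 lower in cisplatin liver. Mpo and Elane had no count in cisplatin libraries of either organ. The cisplatin libraries high in Cxcl1 were also those high in this sum, and its part in the result was not tested.

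In the combination, the ligands of Cxcr2 were below the level of the high cisplatin libraries. Cxcl1 was at 10.1, 29.2 and 13.9 CPM in combination kidney, above every control (70.5-fold, log2 fold change 6.17 ± 1.3, edgeR adjusted p = 0.00327). The combination libraries lay below cisplatin libraries 4 and 5 and above library 6, and the comparison with cisplatin passed the test only without library 6 (log2 fold change -2.97 ± 0.968, edgeR adjusted p = 0.264 with it, against log2 fold change -3.54, edgeR adjusted p = 0.000254 without it). In combination liver Cxcl1 was at 10.9, 58.5 and 17.4 CPM, not called against control (edgeR adjusted p = 0.279), and it was lower than cisplatin only without library 3 (log2 fold change -2.47 ± 0.963, edgeR adjusted p = 0.168 with it, against log2 fold change -2.90, edgeR adjusted p = 0.038 without it).

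Cxcl2 was at 0.723, 0.617 and 0.703 CPM in combination kidney and 0.141, 0.151 and 0.221 CPM in combination liver. Against cisplatin it was not called with all libraries (edgeR adjusted p = 0.235 in kidney and 0.149 in liver), and it was lower without the library that stood apart (log2 fold change -4.72 in kidney and -5.23 in liver; edgeR adjusted p = 4.14e-05 and 0.0162). CBLB502 alone left Cxcl1 at 0.522, 0.417 and 0.126 CPM in kidney and 8.76, 2.85 and 2.47 CPM in liver, groups that overlapped the controls and were not called.

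The interferon-induced ligands of Cxcr3, a receptor of activated T and NK cells, moved apart in kidney. Cxcl10 (ENSMUSG00000034855, chromosome 5, 92346638 to 92348882, minus strand; its record overlaps Art3) was at 20.7, 12.8 and 8.4 CPM in cisplatin kidney, against 6.05, 3.23 and 3.32 CPM in control, with no overlap (3.32-fold, log2 fold change 1.69 ± 0.356, edgeR adjusted p = 0.00316). Cxcl9, induced mainly by interferon gamma, fell in cisplatin kidney to 0.128, 0.0791 and 0.249 CPM, against 7.11, 1.49 and 3.39 CPM in control, again with no overlap (log2 fold change -4.76 ± 1.03, edgeR adjusted p = 0.00361). Cxcl11 was not called there (edgeR adjusted p = 0.678).

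In liver, all 3 of these ligands were called lower with cisplatin than in control. Cxcl9 was at 0.177, 0 and 1.29 CPM with cisplatin, against 5.36, 6.23 and 5.95 CPM in control (log2 fold change -3.57 ± 1.04, edgeR adjusted p = 0.0161). Cxcl10 was at 0.77, 0.234 and 0.594 CPM with cisplatin, against 2.4, 3.51 and 1.16 CPM in control (log2 fold change -2.15 ± 0.658, edgeR adjusted p = 0.0209). Cxcl11, whose record overlaps Art3 and Gm2673, was at 0.128, 0.0778 and 2.28 CPM with cisplatin, against 4.37, 13.1 and 10.6 CPM in control (edgeR adjusted p = 0.0178). None of the 3 overlapped between the groups, and library 3 was the highest cisplatin library for Cxcl9 and Cxcl11. The call of Cxcl9 was lost without cisplatin library 1 (edgeR adjusted p = 0.0508). That of Cxcl10 was lost without cisplatin library 2 or control library 2 (edgeR adjusted p = 0.0745 and 0.0783), and that of Cxcl11 without control library 2 (edgeR adjusted p = 0.0511).

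Cxcl9 was also low in the combination, at 0.155, 0.22 and 0 CPM in kidney and 0.423, 0.378 and 0.38 CPM in liver, lower than control in both (edgeR adjusted p = 0.00295 and 0.0132). Cxcl10 was at 9.36, 6.37 and 6.08 CPM in combination kidney, above every control but not called (edgeR adjusted p = 0.115), and at 0.247, 0.479 and 0.123 CPM in combination liver, lower than control (edgeR adjusted p = 0.0048). With CBLB502 alone, liver had Cxcl9 at 11.9, 7.91 and 5.28 CPM and Cxcl10 at 6.49, 3.86 and 3.17 CPM, and neither was called against control.

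Cxcr3 was near 0 with cisplatin in both organs. It was at 0, 0 and 0.0255 CPM in cisplatin kidney, against 1.4, 0.393 and 0.214 CPM in control (log2 fold change -6.10 ± 1.51, edgeR adjusted p = 0.00792), and at 0.177, 0 and 0.101 CPM in cisplatin liver, against 3.52, 0.793 and 3.92 CPM in control (log2 fold change -4.87 ± 1.38, edgeR adjusted p = 0.0177). In the combination it was at 0, 0.0284 and 0 CPM in kidney and had no count in liver, lower than control in both (edgeR adjusted p = 0.00872 and 0.00216). None of these groups overlapped its controls. CBLB502 kidney had 0.432, 0.361 and 0.229 CPM.

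Markers of T and NK cells (Cd3e, Cd3d, Cd3g, Cd4, Cd8a, Nkg7, Ncr1 and Klrb1c) moved with this receptor. Their sum was 0.288 to 0.663 CPM in combination kidney, 0.0225 to 0.683 CPM with cisplatin, 2.09 to 3 CPM with CBLB502 and 3.28 to 15.8 CPM in control. In liver the sums were 0.277 to 0.857, 0 to 1.28, 4.65 to 5.76 and 10.4 to 21.6 CPM in the same order of arms. With cisplatin, 5 of 6 tested markers were lower in kidney and 5 of 8 in liver. Klrb1c had no count in any combination or cisplatin library, nor had Cd3e and Cd4 in those of kidney or Cd8a in those of liver. Their part in the result was not tested.

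The monocyte-attracting ligands were low. Ccl2, the main ligand of Ccr2, was at 0.338, 0.087 and 0.453 CPM in cisplatin kidney, against 1.46, 0.477 and 0 CPM in control, and at 0, 0.28 and 0.0885 CPM in cisplatin liver, against 1.41, 0 and 0.435 CPM in control. The groups overlapped and neither was called (edgeR adjusted p = 0.445 and 0.276). Ccl7, another ligand of Ccr2, had no count in combination and control liver, 0, 0.0623 and 0.291 CPM with cisplatin and 0.518, 0.0644 and 0.292 CPM with CBLB502, and it was too low to test in kidney. Ccl8, a CC ligand made by macrophages, had no count in combination kidney, against 0.336, 0.477 and 0.5 CPM in control, at least 62.1-fold lower against 3 counts over the combination group (edgeR adjusted p = 0.00721). Ccl12, a mouse ligand of Ccr2, was tested in kidney and called in no comparison with control.

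Of 6 tested receptors of myeloid cells, 3 were called lower with cisplatin in each organ, and 4 in kidney and 3 in liver with the combination. None was called higher. Over all tested genes, 15.2% in kidney and 17.5% in liver were lower with cisplatin, and 15% and 16.4% with the combination. Ccr2, which brings monocytes out of the marrow and into tissue, was at 0, 0.0993 and 0.127 CPM in combination kidney and 0.128, 0.142 and 0.128 CPM in cisplatin kidney, against 3.19, 0.393 and 0.643 CPM in control (edgeR adjusted p = 0.00717 and 0.0158). CBLB502 kidney had 2.36, 3.01 and 2.27 CPM, so both arms with cisplatin lay below both arms without it. The cisplatin call in kidney was lost without control library 1 (edgeR adjusted p = 0.107). In liver Ccr2 was at 0.153, 0 and 0.098 CPM in the combination arm and at 0.674, 0.56 and 0.392 CPM in the cisplatin arm, against 7.05, 2.15 and 6.24 CPM in control (log2 fold change -5.85 ± 1 and -3.25 ± 0.879; edgeR adjusted p = 0.000906 and 0.0113).

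Cx3cr1, the fractalkine receptor of monocytes and resident macrophages, was at 0.125, 0.17 and 0.154 CPM in combination kidney and 0.0225, 0.0237 and 0.319 CPM in cisplatin kidney, against 3.53, 1.97 and 0.643 CPM in control (edgeR adjusted p = 0.00717 and 0.00489). In liver it was lower than control in all 3 treated arms, with log2 fold changes of -4.76 ± 1.02 in the combination, -4.10 ± 0.987 with cisplatin and -2.71 ± 0.924 with CBLB502 (edgeR adjusted p = 0.00343, 0.00591 and 0.0472). CBLB502 liver had 0.305, 0.464 and 0.722 CPM, against 5.78, 3.51 and 0.581 CPM in control, groups that overlapped. The CBLB502 call was lost without any 1 of the CBLB502 libraries or control library 1 or 2 (edgeR adjusted p up to 0.16). The record of Cx3cr1 overlaps 8 other genes, 3 of them on the same strand, so its counts are uncertain.

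Ccr1, a myeloid receptor for several CC ligands, was at 0.331, 0.222 and 0.683 CPM in cisplatin kidney, against 0, 0 and 0.214 CPM in control, with a higher mean and no call (edgeR adjusted p = 0.156). It had no count in combination liver and 1.64, 1.6 and 0.0379 CPM in cisplatin liver, against 0, 0 and 0.581 CPM in control, and was not called against control.

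Markers of monocytes and macrophages (10 genes, among them Adgre1, Csf1r and Clec4f) summed to 24 to 35.2 CPM in combination liver, 40 to 157 CPM in cisplatin liver, 247 to 446 CPM in CBLB502 liver and 183 to 311 CPM in control liver. All 10 tested were lower in the combination and 6 with cisplatin. In kidney the sums were 17 to 28.7, 15.3 to 32.2, 32.3 to 59.3 and 33.8 to 52.6 CPM in the same order of arms, with 1 of 6 tested lower in the combination and 1 with cisplatin. Timd4, Marco and Vsig4 had no count in combination and cisplatin kidney. Hemoglobin transcripts (Hba-a1, Hba-a2, Hbb-bs and Hbb-bt) fell with the receptors too, with sums of 1.39 to 4.61, 0.689 to 3.1, 122 to 541 and 129 to 662 CPM in kidney and 0.404 to 1.22, 0.291 to 1.71, 189 to 208 and 171 to 811 CPM in liver. All 4 were lower than control in both arms with cisplatin of both organs, and none had a call with CBLB502. The part of these levels in the fall of the receptors was not tested.

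**Figure D3:**
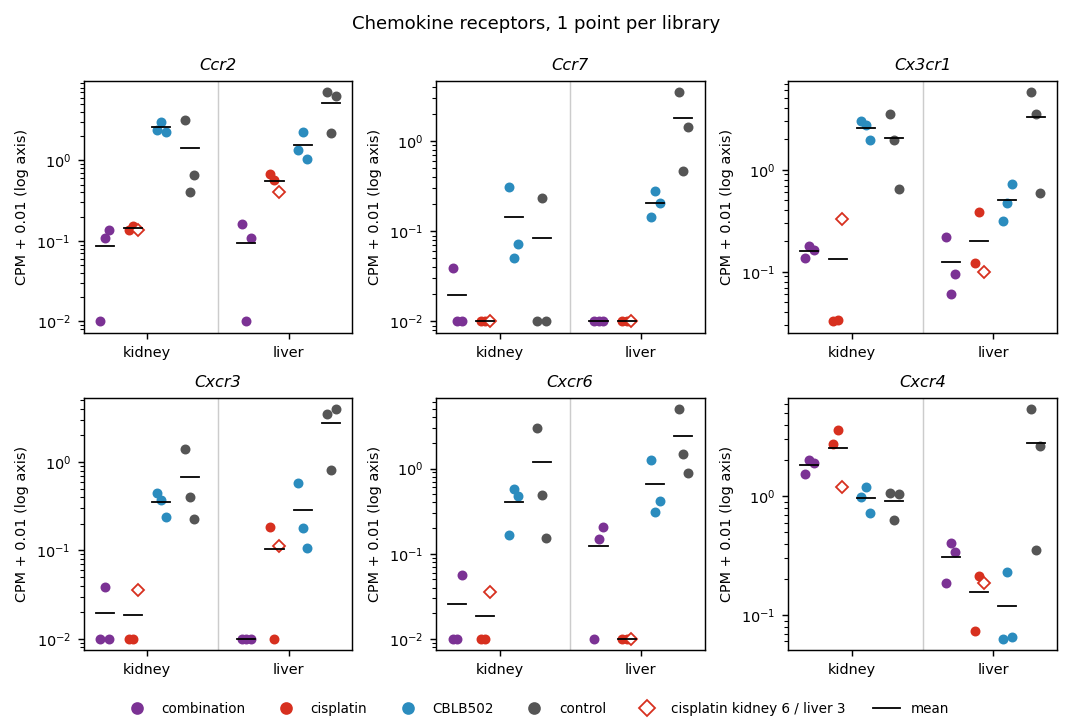
Levels of 6 chemokine receptors in each library (CPM plus 0.01, log axis), kidney left and liver right in each panel, arms from left to right as combination, cisplatin, CBLB502 and control, with black bars at the mean and the open diamond for the cisplatin library that stood apart. In kidney Ccr2, Cx3cr1 and Cxcr3 are lower in both arms with cisplatin than in control, while Cxcr4 is at 2.72, 3.62 and 1.19 CPM with cisplatin, against 1.06, 0.618 and 1.04 CPM in control.

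Among the other inflammatory CC ligands, Ccl5 was lower in both organs and Ccl9 higher in liver. Ccl5, made by T cells, NK cells and platelets, was at 0.649, 0.447 and 0.844 CPM in combination kidney, 0.451, 0.847 and 0.849 CPM in cisplatin kidney and 0.82, 0.995 and 1.01 CPM in CBLB502 kidney, against 9.07, 1.77 and 2.39 CPM in control. No treated arm overlapped control, and all 3 were called (edgeR adjusted p = 0.0034, 0.00417 and 0.0155). In liver it was at 0, 0.139 and 0.098 CPM in the combination arm and at 0.0642, 0 and 0 CPM in the cisplatin arm, against 13.4, 10.9 and 2.32 CPM in control (edgeR adjusted p = 0.00128 and 0.000464). Platelet markers (Itga2b, Gp9, Gp1bb) summed to 1.45 to 2.29, 1.59 to 2.41 and 2.03 to 2.55 CPM in the combination, cisplatin and CBLB502 arms of liver, against 11.2 to 16.5 CPM in control. In kidney the sums were 3.84 to 7.36, 2.02 to 5.3 and 3.35 to 3.91 CPM in the same order, against 4.53 to 6.29 CPM in control. There, 0 of 3 platelet markers were called in each treated arm against control. The part of these markers in the result was not tested.

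Ccl9 (ENSMUSG00000019122, chromosome 11, 83572919 to 83578636, minus strand), a mouse ligand of Ccr1 made by macrophages, was at 61.6, 65.5 and 57.8 CPM in combination liver, 30.6, 33.7 and 84.1 CPM in cisplatin liver and 36.4, 37.5 and 26 CPM in CBLB502 liver, against 9.86, 13.1 and 12.6 CPM in control. Every treated library lay above every control, by 5.19-fold, 4.16-fold and 2.8-fold in the mean (edgeR adjusted p = 0.000335, 0.000733 and 0.00742). Monocyte and macrophage markers of liver summed to 24 to 35.2, 40 to 157 and 247 to 446 CPM in the same order of arms. Their control sums were 183 to 311 CPM, and their part in the result was not tested. Kidney had little Ccl9, at 0.553, 1.18 and 0.456 CPM in the combination arm and at 1.08, 0.918 and 1.14 CPM in the cisplatin arm, against 4.93, 0.589 and 1.36 CPM in control. Ccl6, a close relative, was lower in liver instead, at 2.36, 1.2 and 2.54 CPM in the combination arm and at 10.7, 10.1 and 4.49 CPM in the cisplatin arm, against 23.4, 11.7 and 38.8 CPM in control (edgeR adjusted p = 0.000465 and 0.0284). The cisplatin call for Ccl6 in liver was lost without cisplatin library 2 or 3 or control library 1 or 3 (edgeR adjusted p up to 0.139). In kidney Ccl6 was also called lower in both arms (edgeR adjusted p = 0.00619 for the combination and 0.0365 for cisplatin, the second lost without cisplatin library 5 or 6 or control library 1 or 3, at up to 0.178). Ccl3 and Ccl4, ligands made by macrophages and T cells, had at most 0.906 CPM in any library. Ccl3 was called lower in the combination than in control (edgeR adjusted p = 0.0363 in kidney and 0.0321 in liver), but the groups overlapped at 0, and the calls were lost without any 1 of 4 libraries in kidney (edgeR adjusted p = 1 without control library 1) and any 1 of 5 in liver.

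Among ligands of epithelium and of eosinophils, Ccl20, Ccl28 and Cxcl17 were called higher in cisplatin kidney and Ccl11 lower. Ccl20, the ligand of Ccr6 made by epithelium, was at 0.76, 0.575 and 0.677 CPM in combination kidney and 0.594, 0.649 and 0.779 CPM in cisplatin kidney, with no count in any control library. This was at least 18.2-fold and 18.3-fold higher against 3 counts over the control group (edgeR adjusted p = 0.000285 and 0.000315). CBLB502 kidney had 0.0596, 0.0241 and 0.0236 CPM, below every library that received cisplatin, and both differences passed the test (edgeR adjusted p = 0.00116 for the combination and 0.00117 for cisplatin). Library 6 was not low for this gene.

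Ccl28, a mucosal epithelial ligand of Ccr10, was at 14.1, 9.64 and 7.39 CPM in combination kidney and 23.3, 6.12 and 7.04 CPM in cisplatin kidney, against 1.18, 1.99 and 5.39 CPM in control. Neither arm overlapped control, and only cisplatin was called (4.26-fold, edgeR adjusted p = 0.033; combination edgeR adjusted p = 0.0557), a call lost without cisplatin library 4 or control library 1 or 2 (edgeR adjusted p = 0.185, 0.106 and 0.103). Cxcl17, a mucosal chemokine, was at 0.944, 0.298 and 0.348 CPM in combination kidney and 1.19, 0.847 and 0.281 CPM in cisplatin kidney, with no count in control, at least 14.4-fold and 21-fold higher (edgeR adjusted p = 0.0145 and 0.00932). Ccl11, an eosinophil attractant that binds Ccr3, was at 0, 0 and 0.0255 CPM in cisplatin kidney, against 1.74, 0.225 and 0.5 CPM in control, with no overlap (edgeR adjusted p = 0.017). Ccl24, another ligand of Ccr3, was at 0.916, 0.391 and 0.11 CPM in combination liver, against 1.41, 0.793 and 5.95 CPM in control, groups that overlapped (edgeR adjusted p = 0.0414).

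Cxcl12 and its receptor Cxcr4 hold leukocytes and progenitors in place. Cxcl12 (ENSMUSG00000061353, chromosome 6, 117168535 to 117181367, plus strand) was at 27.7, 42.8 and 308 CPM in cisplatin liver, against 100, 112 and 81.6 CPM in control, so libraries 1 and 2 lay below and library 3 above every control. With all libraries it was not called (log2 fold change 0.35 ± 0.668, edgeR adjusted p = 0.691), and without library 3 it was lower (log2 fold change -1.44, edgeR adjusted p = 0.000489). In kidney it was at 8.47, 10.3 and 55.8 CPM with cisplatin, against 102, 53.6 and 58.1 CPM in control, and library 6 was again the high one. It was not called with library 6 (edgeR adjusted p = 0.0586) and was lower without it (log2 fold change -2.96, edgeR adjusted p = 0.000103). The combination libraries had 36.3, 51.4 and 52 CPM in kidney, below every control, and 159, 137 and 178 CPM in liver, above every control, and neither was called.

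Markers of endothelium were Pecam1, Cdh5, Stab2, Lyve1, Ehd3 and Kdr, and those of stroma Des, Lrat, Rgs5, Col1a1, Col3a1 and Acta2. Their sums ordered the cisplatin libraries of kidney as Cxcl12 did. With CBLB502 Cxcl12 was at 99.1, 65 and 38.4 CPM in kidney, and the endothelial sums were 90.2, 74.8 and 46.1 CPM. Both ranges overlapped control, while every stromal sum was below every control. In combination kidney Cxcl12 was not called against control, and most markers were called lower. Endothelial markers summed to 7.32 to 17.9 CPM in combination kidney, 5.16, 7.43 and 33 CPM with cisplatin, 46.1 to 90.2 CPM with CBLB502 and 83.9 to 170 CPM in control. Stromal markers summed to 26.3 to 29.6 CPM in combination kidney, 8.9, 16.6 and 40.4 CPM with cisplatin, 67.3 to 90.5 CPM with CBLB502 and 262 to 301 CPM in control. With cisplatin and with the combination, 5 of 6 of each set were called lower in kidney, and library 6 was the highest cisplatin library for both sums, as it was for Cxcl12, Cxcl14 and Ccl21a. In liver the endothelial sums were 9.8 to 17.1, 11.4 to 34.7, 55.8 to 123 and 54.6 to 75.5 CPM in the same order of arms, with 4 of 6 lower in the combination and 2 with cisplatin, and the stromal sums were 11.5 to 16, 8.1 to 14, 49.4 to 69.5 and 51.1 to 300 CPM, with 5 and 6 of 6 lower. Liver cisplatin library 3, the high one for Cxcl12, had the lowest stromal sum of its group. The part of these markers in the results for Cxcl12, Cxcl14 and the Ccl21 copies was not tested.

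Cxcr4 (ENSMUSG00000045382, chromosome 1, 128588199 to 128592293, minus strand) rose in cisplatin kidney to 2.72, 3.62 and 1.19 CPM, against 1.06, 0.618 and 1.04 CPM in control (2.77-fold, edgeR adjusted p = 0.0225), and the call was lost without cisplatin library 4 or 5 or control library 2 (edgeR adjusted p = 0.0566, 0.107 and 0.0778). In liver it was at 0.176, 0.391 and 0.331 CPM in the combination arm, 0.0642, 0.202 and 0.177 CPM in the cisplatin arm and 0.0531, 0.219 and 0.0555 CPM with CBLB502, against 5.36, 0.34 and 2.61 CPM in control. All 3 arms were called lower (edgeR adjusted p = 0.0267, 0.00756 and 0.0082), the controls spread widely and the combination overlapped the lowest of them.

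Of the ligands and receptors of lymphoid homing, Cxcl13, Cxcr5 and Ccr7 were lower than control in both arms with cisplatin of liver. Cxcl13, the B cell attractant, was at 0.258, 0.126 and 0.294 CPM in combination liver and 0.594, 0.405 and 0.177 CPM in cisplatin liver, against 6.76, 2.38 and 4.21 CPM in control (19.7-fold and 11.4-fold lower, edgeR adjusted p = 0.00047 and 0.00101). Its receptor Cxcr5 had no count in either arm, against 1.27, 1.02 and 1.6 CPM in control, at least 106-fold lower in the combination and 88.7-fold lower with cisplatin against 3 counts over the treated group (edgeR adjusted p = 0.00136 and 0.00121). Ccr7, which guides T cells and dendritic cells to lymph nodes, had no count in those arms either, against 3.52, 0.453 and 1.45 CPM in control (edgeR adjusted p = 0.00219 and 0.002). B cell markers (Cd79a, Cd79b, Ms4a1 and Ighm) summed to 0.106 to 0.159 CPM in combination liver, 0.16 to 1.04 CPM in cisplatin liver, 4.24 to 9.02 CPM in CBLB502 liver and 27.4 to 47.9 CPM in control. All 4 were lower than control in both arms with cisplatin, Ms4a1 had no count in them, and their part in the result was not tested.

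The ligands of Ccr7 are Ccl19 and the copies of Ccl21. Ccl19 was at 0.0664, 0.135 and 0 CPM in combination kidney and 0, 0 and 0.102 CPM in cisplatin kidney, against 1.51, 0.898 and 0.679 CPM in control, with no overlap (edgeR adjusted p = 0.0378 and 0.0172). Ccl21a, Ccl21b and Ccl21d are near-identical copies among which reads may be split, so each is uncertain. All 3 were called lower in cisplatin liver (edgeR adjusted p = 0.0232, 0.013 and 0.0116). In cisplatin kidney they were called only without library 6, with Ccl21a at 0.0301, 0.0396 and 1.56 CPM, against 3.19, 2.25 and 4.04 CPM in control (edgeR adjusted p = 0.0823 with library 6 and 1.31e-05 without it).

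Of the remaining homeostatic ligands, Cxcl14 and Ccl25 changed in kidney and Ccl25 and Ccl27a in liver. Cxcl14, an epithelial chemokine, was at 0.885, 1.81 and 1.69 CPM in combination kidney and 0.301, 0.926 and 3.12 CPM in cisplatin kidney, against 20.7, 9.43 and 8.79 CPM in control, with no overlap (8.87-fold and 8.94-fold lower, edgeR adjusted p = 0.00431 and 0.00388). Ccl25, the ligand of the gut-homing receptor Ccr9, was at 2.01, 3.11 and 2.62 CPM in cisplatin kidney, against 5.43, 4.83 and 3.29 CPM in control, and at 3.05, 3.38 and 3.92 CPM in cisplatin liver, against 4.79, 9.63 and 7.55 CPM in control (edgeR adjusted p = 0.0303 and 0.0104). Neither pair of groups overlapped, but the record of Ccl25 overlaps Elavl1. Ccl27a, a ligand of Ccr10 that overlaps Il11ra1 and has the close copy Ccl27b, was at 4.03, 4.5 and 4.8 CPM in combination liver and 6.21, 6.15 and 12.6 CPM in cisplatin liver, against 12.4, 15 and 23.7 CPM in control (edgeR adjusted p = 0.00125 and 0.0257). Ccr9 was 30.1-fold lower in cisplatin liver than in control (edgeR adjusted p = 0.00555), and its record overlaps 6 other genes.

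Of the membrane-bound ligands, Cxcl16 (ENSMUSG00000018920, chromosome 11, 70453983 to 70459984, minus strand; its record overlaps Zmynd15), ligand of the receptor Cxcr6 of activated T cells, changed in opposite directions in the organs. In kidney it was at 50.2, 47.7 and 29.1 CPM with cisplatin, against 24.6, 20.4 and 17.3 CPM in control (2.04-fold, log2 fold change 0.98 ± 0.215, edgeR adjusted p = 0.00401). In liver it was at 2.28, 1.93 and 2.72 CPM with cisplatin, against 10.6, 4.53 and 7.11 CPM in control (3.21-fold lower, log2 fold change -1.69 ± 0.397, edgeR adjusted p = 0.00516). Neither pair of groups overlapped. In the combination it was at 28.8, 31.5 and 27.4 CPM in kidney, above every control but not called (edgeR adjusted p = 0.124), and at 0.352, 0.693 and 0.502 CPM in liver, 14.3-fold below control (edgeR adjusted p = 6.93e-05). Its receptor Cxcr6 had no count in cisplatin liver, against 4.93, 1.47 and 0.871 CPM in control (at least 166-fold lower, edgeR adjusted p = 0.00249), and 0, 0 and 0.0255 CPM in cisplatin kidney, against 2.97, 0.477 and 0.143 CPM in control (edgeR adjusted p = 0.0079). The record of Cxcr6 overlaps Fyco1.

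Cx3cl1 (ENSMUSG00000031778, chromosome 8, 94772009 to 94782427, plus strand), or fractalkine, the ligand of Cx3cr1, was called in no kidney comparison with control. It was at 25.9, 25.4 and 23.1 CPM in combination kidney, 37.6, 34 and 25.3 CPM with cisplatin and 30.9, 27.8 and 23.7 CPM with CBLB502, against 47.9, 30.4 and 22.7 CPM in control, and all groups overlapped control. In liver it was lower in the combination, at 0.74, 0.202 and 0.221 CPM, against 3.66, 2.49 and 0.726 CPM in control, groups that overlapped (edgeR adjusted p = 0.0271). Xcl1, a ligand made by T and NK cells, was too low to test in either organ on its own, with at most 0.846 CPM in any library. Its receptor Xcr1, a marker of cross-presenting dendritic cells, was at 0, 0.0638 and 0 CPM in combination kidney and 0.0676, 0 and 0 CPM in cisplatin kidney, against 1.29, 0.14 and 0.214 CPM in control (edgeR adjusted p = 0.0488 and 0.0484; cisplatin lost without cisplatin library 5 or 6 or control library 1 or 3, at up to 0.214). CBLB502 kidney had 0.484, 0.578 and 0.568 CPM, above both arms with cisplatin. The sum of 4 dendritic cell markers was 1.24 to 1.82 CPM in combination kidney, 1.08 to 2.62 CPM with cisplatin, 5.84 to 8.22 CPM with CBLB502 and 6.22 to 7.28 CPM in control, with 3 and 2 of 4 called lower and 1 higher in the combination, and its part in the result was not tested.

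**Figure D4:**
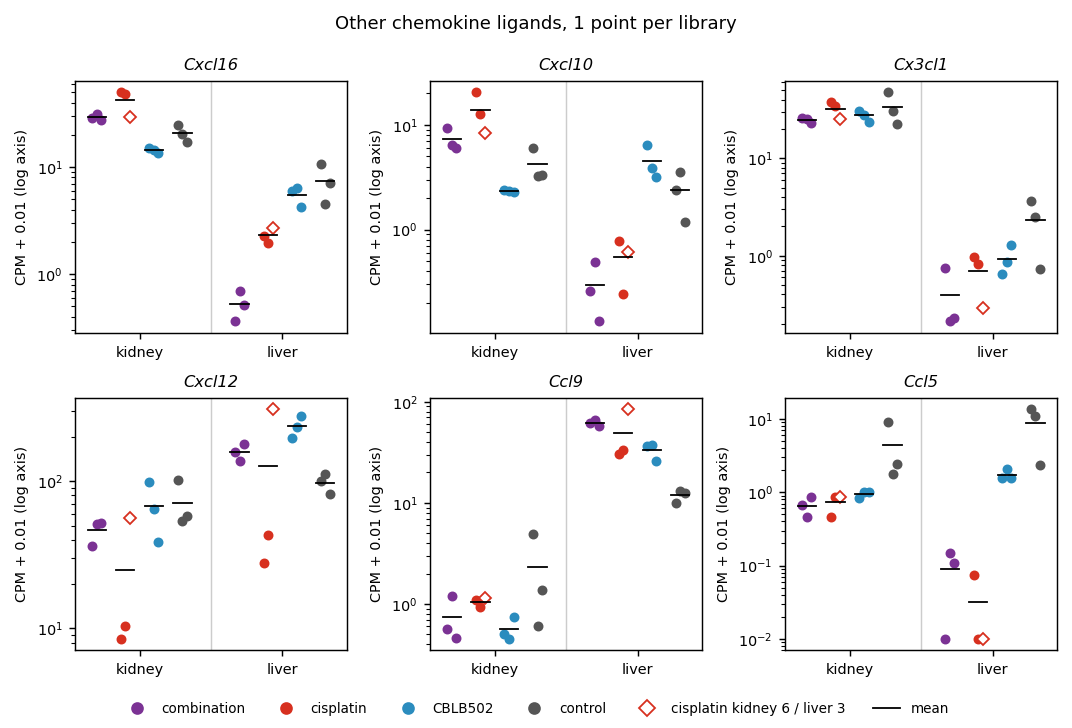
Levels of 6 further ligands in each library (CPM plus 0.01, log axis), kidney left and liver right in each panel, arms from left to right as combination, cisplatin, CBLB502 and control, with black bars at the mean and the open diamond for the cisplatin library that stood apart. Cxcl16 and Cxcl10 are higher with cisplatin than in control in kidney and lower in liver, Ccl9 is higher in every treated arm of liver, and the diamond of Cxcl12 is the highest cisplatin library in both organs.

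Setting the combination against cisplatin asks whether CBLB502 altered the response to the drug. In liver edgeR called 1 of 36 tested members, where 3.57% of all tested genes were called, 0.993% higher and 2.58% lower. This was Cxcl16, 4.47-fold lower in the combination, with no overlap (log2 fold change -2.10 ± 0.402, edgeR adjusted p = 0.0206). Its call was lost without any 1 of 5 libraries, with edgeR adjusted p up to 0.117 without combination library 1. In kidney edgeR called 0 of 43, where 0.00492% of all tested genes were called, 0.00492% higher and 0% lower, while 7 members had an unadjusted p under 0.05 and DESeq2 called 1. In liver 16 members had an unadjusted p under 0.05 and DESeq2 called 11. Fitted on treated libraries only, an alternative chosen after seeing the data, edgeR called 4 of 35 in liver, among them Cxcl16, Ccl6 and Ccl19, all lower (8.22% of all genes), and 0 of 42 in kidney. The edgeR counts also depended on the cisplatin library that stood apart. Without library 3, 12 members were called in liver: Ccl9, Cxcl11 and Cxcl12 were higher in the combination (log2 fold change 1.01, 4.61 and 2.23), and Cxcl1, Cxcl2, Cxcl3, Cxcl14, Cxcl16, Ccl6, Ccl19, Ccr1 and Ccr2 were lower. Without library 6, 8 were called in kidney. Cxcl12, Ccl21a and Cx3cr1 were higher (log2 fold change 2.30, 3.64 and 2.63), as was Ccl19, which had no count in cisplatin libraries 4 and 5. Cxcl1, Cxcl2, Cxcl10 and Cxcl16 were lower (-3.54, -4.72, -1.22 and -0.75). These counts set 3 combination libraries against 2 cisplatin libraries, and the libraries were left out with their values known. Neutrophil markers were lower in the combination than in cisplatin liver for 3 of 5 tested genes with all libraries.

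CBLB502 alone changed 3 members in kidney and 6 in liver relative to control by edgeR, and 6 and 12 by DESeq2. In kidney Ccl5, Cxcl16 and Ccl9 were lower, and each call was lost without control library 1 (edgeR adjusted p = 0.0747, 0.168 and 0.306) and without any 1 of the CBLB502 libraries, that of Cxcl16 also without control library 2 and that of Ccl9 without control library 3. Cxcl16 was at 15, 14.4 and 13.6 CPM with CBLB502, against 24.6, 20.4 and 17.3 CPM in control (edgeR adjusted p = 0.0442). In liver Ccl9 was higher, and Ccl6, Ccl25, Ccl27a, Cxcr4 and Cx3cr1 were lower. The calls of Ccl25 and Cx3cr1 were lost without any 1 of the CBLB502 libraries (edgeR adjusted p up to 0.169 and 0.16). Each was also lost without control library 2, that of Ccl25 without control library 3 and that of Cx3cr1 without control library 1. The other 4 liver calls were kept without any 1 library. Ccl6 was at 7.05, 3.05 and 3.9 CPM with CBLB502, against 23.4, 11.7 and 38.8 CPM in control (5.27-fold lower, edgeR adjusted p = 0.00582).

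Both arms with cisplatin were also set against CBLB502. Cisplatin against CBLB502 gave 16 called members in kidney, 9 higher and 7 lower (28.7% of all genes, 18.5% higher and 10.2% lower), and 9 in liver, 1 higher and 8 lower (12.5% of all genes, 7.7% higher and 4.84% lower). The higher members in kidney were Cxcl1, Cxcl2, Cxcl5, Cxcl10, Cxcl16, Cxcl17, Ccl20, Ccl28 and Cxcr4, and the higher one in liver was Cxcl1 (35.6-fold, log2 fold change 5.12 ± 1.09, edgeR adjusted p = 0.0121). The lower ones were Cxcl9, Cxcl14, Ccl19, Ccr2, Cx3cr1, Cxcr3 and Cxcr6 in kidney and included Cxcl9, Cxcl10, Cxcl13, Ccl5, Ccr7, Cxcr5 and Cxcr6 in liver. Cxcl10 was thus called higher in kidney and lower in liver (log2 fold change 2.69 ± 0.363 and -3.11 ± 0.664; edgeR adjusted p = 0.000613 and 0.0124).

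The combination against CBLB502 gave 16 called members in kidney, 9 higher and 7 lower (23.8% of all genes, 14.9% higher and 8.98% lower), and 11 in liver, all lower (6.74% of all genes, 2.88% higher and 3.86% lower). In kidney the higher ones were Cxcl1, Cxcl2, Cxcl5, Cxcl10, Cxcl16, Cxcl17, Ccl20, Ccl27a and Ccl28, with Cxcl1 at 49.9-fold (edgeR adjusted p = 0.00393), and the lower ones included Cxcl9, Cxcl14, Ccl8, Ccr2, Cx3cr1 and Cxcr3. Leaving out any 1 library kept 9 of 16 calls of cisplatin and 6 of 16 of the combination against CBLB502 in kidney, and 1 of 9 (Ccl5) and 4 of 11 in liver. In liver the change with the smallest adjusted p was that of Cxcl16, at 0.352, 0.693 and 0.502 CPM in the combination, against 5.99, 6.37 and 4.19 CPM with CBLB502 (10.7-fold lower, edgeR adjusted p = 0.000932), and Ccr2, Ccr7, Cxcr3 and Cxcr5 were among the lower receptors. Fitted on treated libraries only, cisplatin against CBLB502 gave 14 calls in kidney and 11 in liver, and the combination against CBLB502 15 and 8, of which 14, 9, 14 and 8 were shared with the counts above. The calls lost were Cxcl9 and Ccl19 for cisplatin and Cxcl9 for the combination in kidney, where Ccl8 no longer passed the filter, and Ccl5, Ccr7 and Cxcr3 for the combination in liver.

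Whether the agents added up on the log2 scale was tested as an interaction, the log2 change of the combination over CBLB502 less that of cisplatin over control. The control libraries enter this value. A lack of additivity therefore cannot be told apart from their difference in kind. In liver 7 of 36 tested members were called, where 21.7% of all tested genes were called, 7.14% higher and 14.5% lower. Positive values were found for Cxcr4 (5.69 ± 1.42), Ccr9 (4.86 ± 1.46), Ccl25 (1.45 ± 0.402) and Cxcr6. Negative ones included Cxcl16 (-1.69 ± 0.55) and Ccl7, with edgeR adjusted p between 0.0147 and 0.0471. The values for Cxcr6 and Ccl7 rest on groups without a count and are not given. Cxcr4 had means of 0.299, 0.148 and 0.109 CPM in the combination, cisplatin and CBLB502 arms of liver, against 2.77 CPM in control. In kidney edgeR called 0 of 43, where 8.01% of all tested genes were called, 2.6% higher and 5.41% lower. Of the members, 4 had an unadjusted p under 0.05 and DESeq2 called 2. Without the library that stood apart, 6 were called in kidney and 10 in liver, where Cxcl16 and Ccl7 lost their calls. Cxcr4 alone kept its liver call without any 1 of the 12 libraries.

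The organs were compared in the joint fit, as the cisplatin change of kidney minus that of liver. Of 49 tested members 8 were called, 6 higher and 2 lower, where 14.2% of all tested genes were called, 7.75% higher and 6.44% lower. Cxcl16, Cxcl10, Cxcr4 and Cxcl13 differed by 2.70 ± 0.4, 3.89 ± 0.723, 5.67 ± 1.06 and 4.11 ± 1.01 on the log2 scale (edgeR adjusted p = 0.000257, 0.00153, 0.00159 and 0.0102). Cxcl1 differed by 5.39 ± 1.66 (edgeR adjusted p = 0.0348). Its mean level with cisplatin was 138 ± 123 CPM in kidney and 167 ± 110 CPM in liver (SD, n = 3), while that of control was 0.251 ± 0.0837 CPM in kidney and 12.1 ± 11.7 CPM in liver (SD, n = 3). This difference was no longer called without any 1 of 8 of the 12 libraries (edgeR adjusted p = 0.0529 without liver cisplatin library 3 and 0.106 without liver control library 2), and that of Cxcl14 without any 1 of 9 (edgeR adjusted p up to 0.122, without liver cisplatin library 1), while the other 6 kept their call without any 1 of the 12 libraries. Ccl5 differed by 6.07 ± 1.36, having fallen less in kidney, and Ccl9 (-3.12 ± 0.736) and Cxcl14 (-3.98 ± 1.32) were relatively lower in kidney (edgeR adjusted p = 0.00584, 0.00795 and 0.0486). The organ difference of the combination against cisplatin was called for 0 of 49 members by edgeR (0.964% of all genes, 0.668% higher and 0.297% lower), while 6 had an unadjusted p under 0.05 and DESeq2 called 2.

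**Figure D5:**
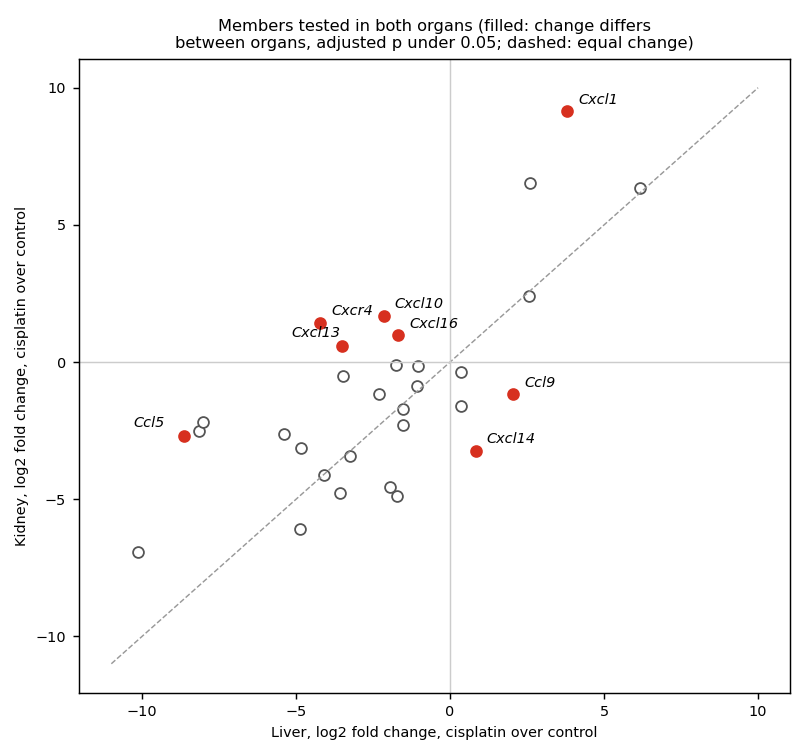
Log2 fold change of cisplatin over control in kidney (vertical) and liver (horizontal) for 31 members tested in both organs, 3 libraries a group. Filled points are the 8 members whose change differed between organs in the joint fit; Cxcl1 lies at 9.14 in kidney and 3.80 in liver.

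In the control arm, 11 of 49 tested members differed between kidney and liver, 4 higher and 7 lower in kidney (33.9% of all genes, 17.2% higher and 16.7% lower). Cx3cl1 was 14.7-fold higher in kidney (edgeR adjusted p = 1.49e-05), and Cxcl16, Cxcl14 and Ccl28 were also higher there, while Cxcl1, Cxcl11, Cxcl13, Ccl6, Ccl9, Ccl24 and Ccl27a were lower. In the cisplatin arm 15 differed, 11 higher and 4 lower in kidney (34.9% of all genes, 19.5% higher and 15.4% lower). Cxcl10 was 26.2-fold and Cxcl16 18.3-fold higher in kidney than in liver, and Ccl9 was 47.2-fold lower (edgeR adjusted p = 1.21e-06, 2.25e-09 and 3.11e-07). Cxcl1 was not called between the organs in that arm.

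Genes around the chemokines were taken from 3 further lists. Of 18 inducers and adhesion genes, 15 were tested in each organ, and with cisplatin 7 rose and 1 fell in kidney, and 4 rose and 3 fell in liver (of all tested genes, 24.1% were higher and 15.2% lower in kidney, and 25.6% and 17.5% in liver, so the liver counts are near the share over all genes). Icam1, the endothelial ligand of leukocyte integrins, was at 119, 99.9 and 14.7 CPM in cisplatin kidney, against 19.3, 10.6 and 10 CPM in control, and at 132, 74.1 and 12.1 CPM in cisplatin liver, against 15.6, 24.7 and 20.5 CPM in control (edgeR adjusted p = 0.00529 and 0.0297). As for Cxcl1, library 6 of kidney and library 3 of liver were the low ones. Tnfaip3, an inhibitor of NF-kB signalling, was at 16.3, 11 and 3.36 CPM in cisplatin kidney, against 1.06, 1.71 and 1.61 CPM in control (edgeR adjusted p = 0.00116), and Vcam1, an adhesion molecule for monocytes and lymphocytes, fell in both organs (edgeR adjusted p = 0.0041 and 0.0115). With the combination 1 rose and 2 fell in kidney, and 0 rose and 7 fell in liver. Of all tested genes, 21.5% were then higher and 15% lower in kidney, and 23.8% and 16.4% in liver. The 2 that fell in kidney are thus near the share over all genes.

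Of 8 related genes (atypical receptors, platelet chemokines and others), 1 of 7 tested rose and 4 fell in cisplatin kidney. In cisplatin liver 0 of 8 rose and 3 fell, and the shares over all genes are those given above for cisplatin. The one that rose was Ackr3, the scavenger receptor of Cxcl12, at 18.1, 24.2 and 18.9 CPM with cisplatin, against 5.26, 9.99 and 6.79 CPM in control (edgeR adjusted p = 0.00129). It was also higher in the combination and CBLB502 arms of kidney (edgeR adjusted p = 0.0112 and 0.00283). Of 10 genes of chemokine receptor signalling, 0 rose and 5 fell in cisplatin kidney, and 1 rose and 5 fell in cisplatin liver, where 15.2% and 17.5% of all tested genes fell. Rac2, a GTPase of blood cells, fell in both (log2 fold change -4.34 ± 0.787 in kidney and -4.47 ± 0.366 in liver; edgeR adjusted p = 0.00129 and 7.82e-06).

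Members not described so far were low. Ccl1, Ccl22, Ccr1l1, Ccr3, Ccr4, Ccr6 and Xcl1 were tested in neither organ on its own, and Ccl17, Ccl27b and Ccr10 were tested in kidney and not called there with all libraries. Without library 6, Ccl17, a ligand of Ccr4, was higher and Ccr10 lower with cisplatin than in control (edgeR adjusted p = 0.0164 and 0.0324). Ccr1l1 and Ccr4 had counts in CBLB502 liver alone, and Ccl1 in 1 library of CBLB502 kidney.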

How the data were processed

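Total RNA of 24 liver and kidney samples was sequenced. Raw counts per gene were used as deposited by the authors. FPKM values deposited by the authors gave the transcript lengths behind the levels per kb, scaled by the median ratio to GENCODE exon lengths. GENCODE lengths served where FPKM values gave none, and 9 of the FPKM columns were not used here. Reads were handled with cutadapt 1.9 and FastQC, per the submitters' processing notes. Which aligner, counter, strand setting and build were used is not given in the sources used here. Coordinates are those of the table, and 99.4% of its 33272 rows share a start or end with GENCODE M21.

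Counts were fitted over the whole table of each organ with edgeR 4.0.16 (R 4.3.3): TMM scaling, filterByExpr, 4 groups, the quasi-likelihood test and Benjamini-Hochberg adjustment over all tested genes, with a threshold of 0.05. Organ differences were fitted over all 24 libraries in 8 groups. The liver fit and the kidney fit were tested on simulated data for the combination against cisplatin alone, and the joint fit was not. Distances between libraries are leading log2 fold changes over 500 genes (limma 3.58.1). Treated kidney columns carry the numbers 4 to 6 and were tied to their groups only. Alternatives were DESeq2 1.42.0, median-of-ratios scaling, no filter, no mitochondrial genes or nuclear copies, a replicate block in liver and single libraries left out. The library that stood apart was left out, and treated arms were fitted without the controls, after values were seen.

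Called members were named up to 12 a comparison by adjusted p, together with a fixed set of well-known members. The members, gene lists and motif forms were chosen with earlier results of these data known. Results for 1 member are not reported here, although it is counted in the totals, and 1 B cell marker was left out of its list.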

Additional observations from a re-analysis of the deposited data

Results flagged for a closer look

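The response to cisplatin relative to control differed between the organs for 8 of 49 tested members by the test of the difference itself, with 3 libraries a group, where 14.2% of all tested genes were called, a share near that of the members. The calls of Cxcl1 and Cxcl14 were lost with 1 library left out (edgeR adjusted p up to 0.106 and 0.122). On the log2 scale, kidney minus liver, it was 2.7 for Cxcl16, 3.89 for Cxcl10, 5.67 for Cxcr4, 4.11 for Cxcl13, 5.39 for Cxcl1 and 6.07 for Ccl5, and -3.12 for Ccl9 and -3.98 for Cxcl14. Cxcl16 and Cxcl10 were higher with cisplatin than in control in every kidney library and lower in every liver library. All 4 hemoglobin genes fell in both organs, as did 5 of 6 tested T and NK cell markers in kidney and 5 of 8 in liver, mitochondrial shares separated controls from treated libraries in both, and their part in these differences was not tested.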

How the results depend on the processing

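Named members mostly kept direction and side of the threshold: 182 results kept both and 2 lost the call with DESeq2, 183 and 2 with median-of-ratios scaling, 166 and 19 with no filter, 184 and 1 without mitochondrial genes and nuclear copies, 63 and 16 with a replicate block in liver, and 862 and 337 with 1 library left out. In that last setting 1 lost its direction, that of Ccl3 for the combination against control in kidney. Its log2 fold change was 0 without control library 1, when neither group had a count, and -8.57 at the other end of the range. Counts of called members moved as follows, and the cause was not tested. DESeq2 gave 12 for liver CBLB502 against control, 11 for liver combination against cisplatin, 15 for liver cisplatin against CBLB502, 6 for kidney CBLB502 against control, 1 for kidney combination against cisplatin, 2 for the kidney interaction and 2 for the organ difference of combination against cisplatin. For liver combination against cisplatin, median-of-ratios scaling gave 2, as did leaving out mitochondrial genes and nuclear copies. Treated libraries only, a setting chosen after seeing the data, gave 4 for that comparison, and over the comparisons between treated arms 46 named results kept both and 6 lost the call. With no filter the liver interaction gave 3 and kidney CBLB502 against control 1.

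The replicate block gave 6 for liver combination against CBLB502 and 3 for the liver interaction. Same-numbered liver libraries correlated at -0.17 to 0.18 over 18 pairs, 4 above 0.1. Libraries with different numbers were not correlated, so these values cannot decide whether the numbers pair the libraries. No paired analysis was possible in kidney because treated columns carry no replicate number of the labels.

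With 1 library left out, called members in liver numbered 18 to 24 for cisplatin against control, 4 to 5 for CBLB502 against control, 14 to 22 for the combination against control, 0 to 12 for the combination against cisplatin, 3 to 15 for cisplatin against CBLB502, 4 to 6 for the combination against CBLB502 and 1 to 10 for the interaction. In kidney they numbered 15 to 28, 0 to 3, 12 to 17, 0 to 8, 9 to 23, 6 to 12 and 0 to 6 in the same order. Organ differences numbered 6 to 10 for cisplatin against control and 0 to 2 for the combination against cisplatin, and kidney against liver 10 to 13 in control and 12 to 17 with cisplatin. Depth limits the controls most, where 3 counts were up to 0.435 CPM.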
